A study of Bos taurus with 12 samples.

Results

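The genes described here were 10 transporter genes of the liver, which carry bile acids, bilirubin, drugs, phospholipids and sterols across the hepatocyte membrane: SLCO1B3, SLCO2B1, ABCB1, ABCB4, ABCC2, ABCC3, ABCC6, ABCG2, ABCG5 and ABCG8. They were taken as a list of names, matched to Entrez gene IDs, and all 10 were found among the 30336 genes of the count files. Liver RNA came from Holstein heifer calves at 4 d of age, taken by puncture biopsy. Dams were fed a control diet with no added methionine (CON calves) or the same diet plus ethyl-cellulose rumen-protected methionine (MET calves), for the last 28 d before calving, and both groups of calves were fed and managed alike after birth. There were 6 libraries per diet, with 8277789 to 10397604 reads counted on genes in each. All 6 CON libraries carried one first sequencing index and all 6 MET libraries another, and the effects of index and diet cannot be told apart.

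Counting noise accounted for nearly all of the difference between the libraries of CON replicates 1 and 4, and between those of MET replicates 1 and 3. The reads of each of these pairs were summed and counted as 1 sample, which left 5 samples per diet, and values are given for these 10 samples unless the 12 libraries are named. The labels give each library as a separate sample, and whether any was deposited under more than 1 label was not tested. MET replicates 4 and 5 stood apart over all genes: their counts differed from those of the other libraries and each other by a chi-square per gene of 44.4 to 122, against 23.3 to 50.4 for the other pairs that were not near-identical, and MET replicate 4 had the fewest genes with a read (17121, against 17329 or more). Sample values are always listed in the order CON replicates 1 and 4 (1 sample), 2, 3, 5 and 6, then MET replicates 1 and 3 (1 sample), 2, 4, 5 and 6. Levels are counts scaled to a common library total after TMM normalisation (CPM), and CPM per kb of exon where genes are compared with each other.

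Hepatocytes take organic anions from the sinusoidal blood with carriers of the SLCO family (organic anion transporting polypeptides), and pump products into bile or back into blood with ATP-binding cassette (ABC) transporters. Pumps on the canalicular membrane face the bile, and pumps on the basolateral membrane face the blood. ABCB1, ABCB4 and the ABCC proteins are full transporters that work as 1 chain, whereas ABCG proteins are half-transporters that must pair: ABCG2 with itself, and ABCG5 with ABCG8. Newborn mammals depend on these proteins to clear bilirubin and to start bile flow with the first meals.

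In the livers of these calves the uptake carrier SLCO1B3 was the most abundant of the 10 transporters, and it was the member with the lowest p between diets and the only one whose diets did not overlap. Every MET sample had less SLCO1B3 than the lowest CON sample after TMM normalisation, as 3.72% of all genes tested were separated in either direction. With library size alone as scaling, the SLCO1B3 samples of the diets overlapped. The log2 fold change of SLCO1B3 between the diets was −0.36, or 0.781-fold. ABCG2, a canalicular drug and urate pump, was lower by a log2 fold change of −0.42 with overlapping samples, and the other 8 members had 95% intervals that held 0. With each pair of near-identical libraries counted once, 0 members passed an FDR of 0.10 by the quasi-likelihood test of edgeR, as did 0% of the 13242 genes tested. Over the 12 libraries as separate samples, SLCO1B3 alone of the 10 members had FDR of at most 0.10, against 4.41% of all genes in either direction and 2.32% lower in MET.

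All 10 members passed the filter on low counts, and their levels covered a wide range. SLCO1B3 averaged 208 ± 33.9 CPM per kb (SD, n = 10), higher than 97.4% of all genes tested. ABCB4 followed with 97.9 ± 15.2 CPM per kb and ABCC6 with 47.1 ± 6.63 CPM per kb. Each of these 3 stood above the next gene in 10 of 10 samples, with no overlap of their ranges.

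A middle group of 4 genes could not be ordered. ABCG2 averaged 22.6 ± 5.28, SLCO2B1 21.4 ± 7.10, ABCC2 20.1 ± 3.71 and ABCG8 19.0 ± 8.67 CPM per kb (SD, n = 10), and neighbours in this order kept it in 6, 8 and 7 of 10 samples. ABCG5 was lower, at 9.84 ± 3.02 CPM per kb, and stayed below ABCG8 in every sample. ABCC3 at 0.824 ± 0.354 and ABCB1 at 0.300 ± 0.181 CPM per kb were scarce, ABCC3 being 11.9-fold below ABCG5. ABCB1 was lower than all but 2.07% of the genes tested, with between 2 and 20 reads in a library, so that in some libraries it was at or below the floor of 3 reads used here. The lengths are those of the annotated exons (2091 bases for ABCG5 and 5652 for ABCC3 are the extremes), and a per-kb level depends on how complete each gene model is.

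**Figure D1:**
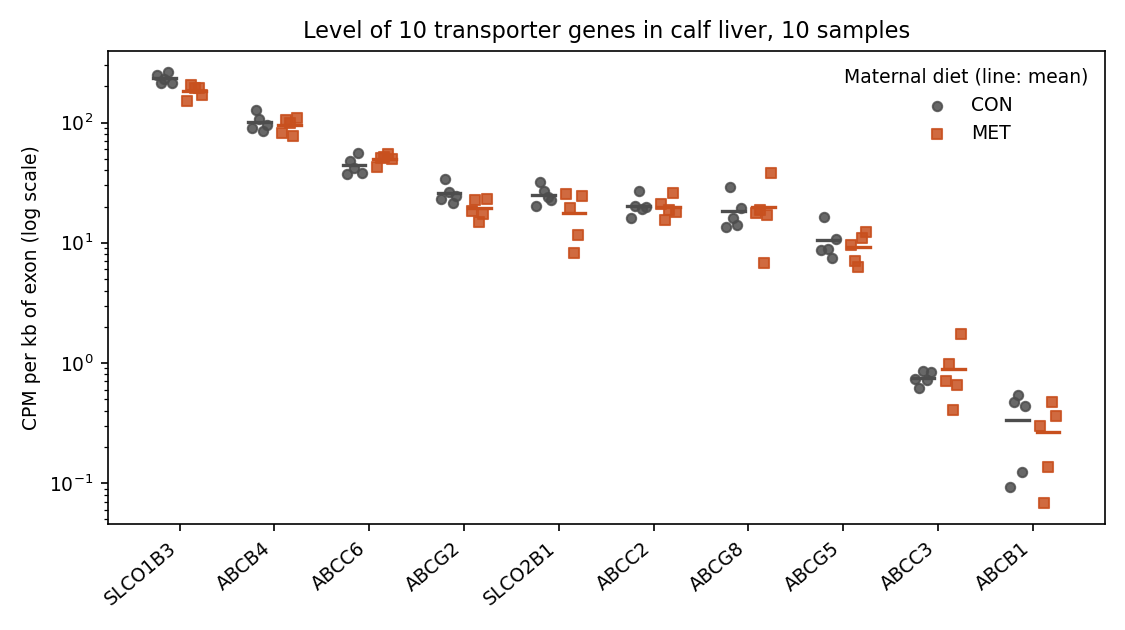
CPM per kb of exon (log scale) of the 10 transporter genes, from the most to the least abundant. Grey circles are the 5 CON and orange squares the 5 MET samples, and lines mark the diet means. SLCO1B3 averaged 208, the 4 genes from ABCG2 to ABCG8 overlapped near 20.1, and ABCC3 and ABCB1 lay under 2.

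Uptake from blood was represented by SLCO1B3 and SLCO2B1. SLCO1B3 takes up bile acids, conjugated bilirubin and drugs such as statins; its gene (Entrez 404160) lies on the minus strand of chromosome 5, from 89322712 to 89394432 in UMD 3.1.1, with 3040 exonic bases. SLCO1B3 had 759, 648, 703, 796 and 645 CPM in CON and 462, 626, 584, 589 and 513 CPM in MET samples. The lowest CON sample, replicate 6, thus stood just above the highest MET sample, replicate 2, and MET replicates 1 and 3 were lowest. The means were 710 ± 67.0 CPM in CON and 555 ± 66.0 CPM in MET (SD, n = 5 each).

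The log2 fold change of SLCO1B3 was −0.36 (SE 0.13, 95% interval −0.65 to −0.067), with an unadjusted p of 0.0198 and FDR = 0.232 in edgeR's quasi-likelihood test over the 10 samples. Over the 12 libraries it was −0.41 (SE 0.12) with FDR = 0.0865. Refitted without 1 library at a time, SLCO1B3 kept an FDR of at most 0.10 in 2 of 12 fits (without CON replicate 2 or MET replicate 2) and had one from 0.102 to 0.167 in the others. The separation of its samples gave an exact two-sided permutation p of 0.00794, the smallest that 5 against 5 samples allow; 3.72% of the genes tested were separated in the same way. The separation held with RLE and upper-quartile scaling, and with library size alone the highest MET sample, at 719 CPM, lay above the lowest CON sample at 580 CPM. DESeq2 gave SLCO1B3 an FDR of 0.0676 over the 10 samples, where it called 5.71% of the genes with an FDR, and called SLCO1B3 and ABCG2 over the 12 libraries, beside 10.4% of the genes with an FDR there.

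The hepatocyte marker list was also low in most MET samples. Summed over its 7 genes, which include ALB for albumin and APOB for apolipoprotein B, it ran from 58187 to 96941 CPM in CON and from 48415 to 77139 CPM in MET samples, and 6 of the 7 genes had a log2 fold change below 0. Most of this sum was ALB, with means of 62170 CPM in CON and 39402 CPM in MET, whereas the means of TTR were 2490 and 2449 CPM and those of SERPINA1 9308 and 8433 CPM. In CON, 4 of 5 samples had sums of 88277 CPM or more, and replicate 3 had the lowest. The highest sum, 96941 CPM in CON replicates 1 and 4, went with 759 CPM of SLCO1B3, a level below only CON replicate 5. CON replicate 6, with a sum of 95768 CPM, had the lowest SLCO1B3 of the CON samples, 645 CPM. Within MET, replicate 2 had the lowest hepatocyte sum and the highest SLCO1B3. The highest MET sums, 77139 CPM in MET replicate 6 and 69093 CPM in MET replicates 1 and 3, went with the lowest SLCO1B3. The part of hepatocyte RNA in the difference between diets was not tested. In bulk liver RNA, fewer cells of a type and less RNA per cell cannot be told apart.

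SLCO2B1 takes up sulfated steroids and drugs, and is found outside the liver as well. It lies on the plus strand of chromosome 15, from 55150991 to 55203577 (Entrez 317704). CPM of SLCO2B1 was 89.9, 145, 120.4, 108 and 101 in CON and 114, 87.5, 36.7, 52.2 and 109 in MET samples. MET replicates 4 and 5 were far below the other 8 samples, whereas 2 MET samples lay above the CON median. Between diets SLCO2B1 differed by a log2 fold change of −0.49 (SE 0.28, 95% interval −1.10 to 0.11; unadjusted p of 0.102, FDR = 0.402 by edgeR's quasi-likelihood test), and the 12 libraries gave −0.35 with FDR = 0.458. These values turned on single samples: the log2 fold change was −0.66 (unadjusted p of 0.0413) without MET replicates 1 and 3, −0.31 (unadjusted p of 0.191) without MET replicate 4 and −0.37 (unadjusted p of 0.212) without MET replicate 5. Without both MET replicates 4 and 5 it was −0.12 (FDR = 0.800), and over the 12 libraries without MET replicate 4 it was −0.19.

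The 2 samples low for SLCO2B1 also had low summed levels of 3 marker lists. For the pericentral hepatocyte list, which holds GLUL and CYP2E1, MET replicates 4 and 5 had 1796 and 1778 CPM, and the other samples 2443 to 4883 CPM. Cholangiocyte markers summed to 41.1 and 45.8 CPM there and to 61.0 CPM or more elsewhere. Endothelial markers summed to 218 and 256 CPM in these samples, and CON replicates 1 and 4 lay between them at 239.5 CPM. The part of these cells in the SLCO2B1 values was not tested.

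**Figure D2:**
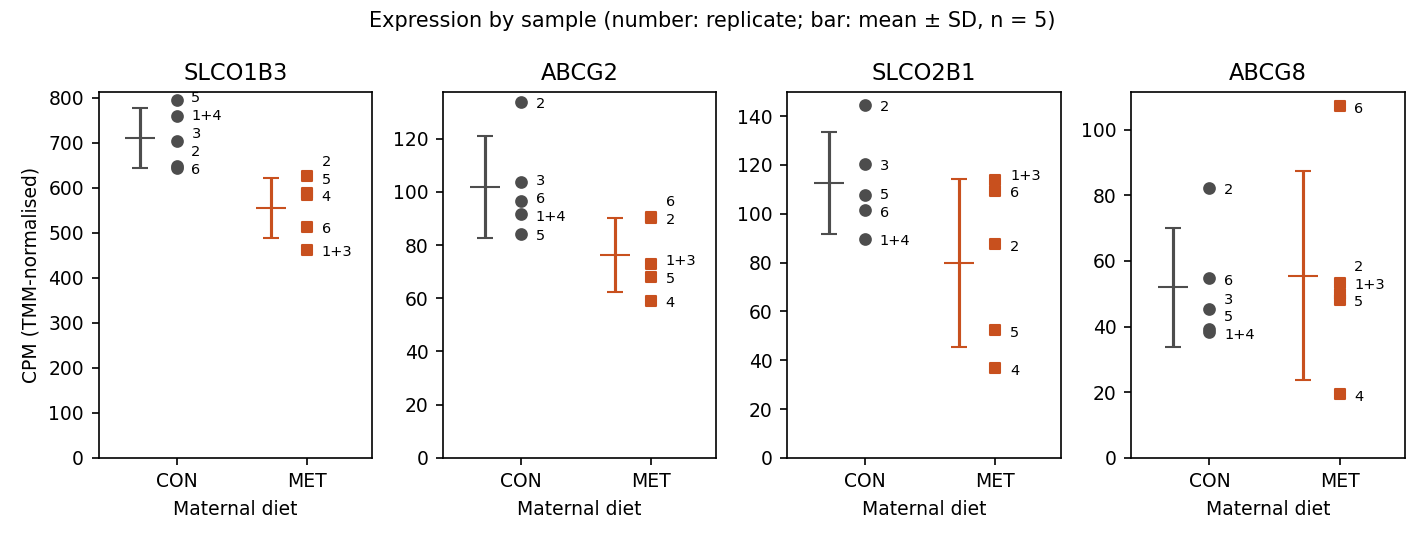
TMM-normalised CPM of SLCO1B3, ABCG2, SLCO2B1 and ABCG8 in each sample, with replicate numbers beside the points and mean ± SD (n = 5) as bars. SLCO1B3 was separated by diet at 626 against 645 CPM, ABCG2 overlapped, SLCO2B1 was low in MET replicates 4 and 5, and ABCG8 ran from 19.3 to 107 CPM within MET.

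Of the 4 canalicular pumps, ABCG2 (breast cancer resistance protein) exports urate, sulfated conjugates and many drugs, and in the udder secretes several of them into milk. Its gene, Entrez 536203, spans 37902882 to 38030585 on the plus strand of chromosome 6. ABCG2 had 91.5, 134, 104, 84.2 and 96.7 CPM in CON samples. In MET samples it had 72.9, 90.2, 59.1, 68.1 and 90.7 CPM. All 5 MET samples were below the CON median of 96.7 CPM, and 3 of them were below every CON sample. Summed endothelial markers were likewise highest in CON replicate 2 (402 CPM) and lowest in MET replicate 4 (218 CPM), with 256 CPM in MET replicate 5. They were also low in CON replicates 1 and 4 (239.5 CPM), where ABCG2 was above every MET sample, and their part in the ABCG2 values was not tested.

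ABCG2 had a log2 fold change of −0.42 (SE 0.16, 95% interval −0.77 to −0.070; unadjusted p of 0.0225, FDR = 0.241 by edgeR's quasi-likelihood test), and −0.41 with FDR = 0.129 over the 12 libraries. The exact two-sided permutation p of its 10 values was 0.0397. SLCO1B3 and ABCG2 were thus the 2 members with an unadjusted p of at most 0.05, both lower in MET; of all genes tested, 16.3% had such a p, 8.52% lower and 7.83% higher in MET. The unadjusted p of ABCG2 was 0.0661 without CON replicate 2, 0.0558 without MET replicate 4 and 0.0503 without MET replicate 5. Without both MET replicates 4 and 5 its log2 fold change was −0.27 (unadjusted p of 0.144, FDR = 0.515), and that of SLCO1B3 was −0.41 (unadjusted p of 0.0256, FDR = 0.350). The unadjusted p of SLCO1B3 was 0.0557 without CON replicate 5 and 0.0550 without MET replicates 1 and 3.

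ABCB4 moves phosphatidylcholine to the bile side of the membrane, where it shields the ducts from bile salts, and ABCB1 (P-glycoprotein) exports drugs and other hydrophobic compounds. The genes are neighbours on the plus strand of chromosome 4, ABCB1 (Entrez 281585) at 33013208 to 33095708 and ABCB4 (Entrez 100336913) at 33120162 to 33194001. ABCB4 ranged from 370.5 to 556 CPM in CON and from 335 to 476 CPM in MET samples, with a log2 fold change of −0.10 (95% interval −0.44 to 0.24; FDR = 0.784 by edgeR's quasi-likelihood test). Without CON replicate 2, its highest sample, the log2 fold change of ABCB4 was −0.0052. It was among the steadier members, with a within-diet SD of 0.23 on the log2 scale, above that of 32.4% of genes.

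ABCB1 was compared with little precision. Its CPM was 0.392, 2.01, 2.28, 0.520 and 1.87 in CON and 1.26, 0.293, 0.575, 2.01 and 1.54 in MET samples, with high and low samples in both diets. The log2 fold change of −0.25 had a 95% interval from −1.48 to 0.99 (FDR = 0.866 by edgeR's quasi-likelihood test); its within-diet SD on the log2 scale, 0.96, was above that of 97.2% of genes. Per kb, ABCB4 exceeded ABCB1 by 158-fold or more in every sample. The log2 CPM of these neighbouring genes had a Pearson r of 0.16 (permutation p = 0.666, adjusted p = 0.666 over 3 pairs) and a Spearman rho of 0.16 (permutation p = 0.654, adjusted p = 0.654); without MET replicate 2 and CON replicates 1 and 4 the r was 0.30.

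ABCC2 (multidrug resistance protein of the canaliculus) exports bilirubin glucuronide and other conjugates into bile. It lies on the plus strand of chromosome 26, from 20612976 to 20684328 (Entrez 520925). ABCC2 had 87.8, 111, 148, 106 and 108 CPM in CON and 116, 85.4, 104, 142 and 99.4 CPM in MET samples, so that the diets overlapped almost fully. Its log2 fold change was −0.034 (95% interval −0.40 to 0.33; FDR = 0.941 by edgeR's quasi-likelihood test), and 0.033 over the 12 libraries.

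On the basolateral membrane, ABCC3 returns conjugates to blood, a route known to be used more when bile flow is blocked. Its gene (Entrez 533151) runs from 36676547 to 36724748 on the minus strand of chromosome 19. ABCC3 had 4.14, 3.52, 4.80, 4.06 and 4.77 CPM in CON and 3.98, 5.56, 2.30, 3.69 and 9.78 CPM in MET samples. MET held both the lowest sample, replicate 4, and the highest, replicate 6. The log2 fold change was 0.25 (95% interval −0.45 to 0.94; FDR = 0.737 by edgeR's quasi-likelihood test), and −0.13 without MET replicate 6. Without both MET replicates 4 and 5 it was 0.58 (FDR = 0.409).

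ABCC6, the transporter lost in pseudoxanthoma elasticum, is needed for release of ATP from hepatocytes, a source of the pyrophosphate that restrains calcification. It lies on the minus strand of chromosome 25 at 14577130 to 14643421 (Entrez 100337270), beside ABCC1. ABCC6 had 193, 248, 216, 287 and 197 CPM in CON samples. In MET samples it had 221, 261, 267, 282 and 258 CPM, all above the CON median of 216 CPM, although the highest sample of all was CON replicate 5. The log2 fold change of 0.18 had a 95% interval from −0.13 to 0.48 (FDR = 0.559 by edgeR's quasi-likelihood test), and the exact two-sided permutation p was 0.151.

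For the balance between conjugate efflux to blood and to bile, no difference between diets was detected. The reads of ABCC3 relative to ABCC2 differed between diets by 0.12 on the log2 scale (exact two-sided permutation p = 0.770, adjusted p = 0.786 over 4 ratios). The log2 CPM of both genes had a Pearson r of −0.20 over the 10 samples (permutation p = 0.592, adjusted p = 0.666) and a Spearman rho of −0.33 (permutation p = 0.349, adjusted p = 0.524), with r at −0.30 without CON replicate 3 and MET replicate 5. The ratio of SLCO1B3 to SLCO2B1 differed by 0.25 (exact two-sided permutation p = 0.556, adjusted p = 0.786), and that of ABCB4 to ABCB1 by 0.16 (p = 0.786, adjusted p = 0.786).

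**Figure D3:**
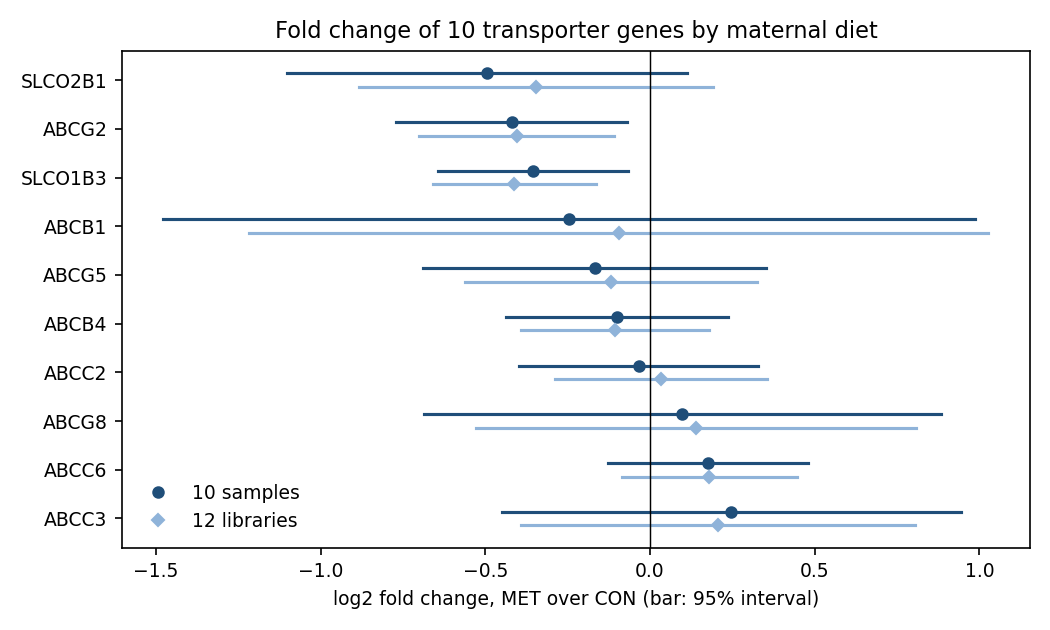
Log2 fold change of each transporter, MET over CON, with 95% intervals, over the 10 samples (dark circles) and the 12 libraries (light diamonds). The intervals of ABCG2 and SLCO1B3 lay below 0 over the 10 samples, at −0.42 and −0.36, and the other 8 held 0; that of ABCB1 was the widest, from −1.48 to 0.99.

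ABCG5 and ABCG8 form the heterodimer that secretes cholesterol and plant sterols into bile; loss of either causes sitosterolemia. The genes lie head to head on chromosome 11, ABCG5 (Entrez 515536) on the minus strand at 26124239 to 26156411 and ABCG8 (Entrez 508829) on the plus strand at 26156409 to 26175034, and share 3 exonic bases on opposite strands. Counting was stranded. ABCG5 had 18.1, 34.5, 18.5, 15.5 and 22.5 CPM in CON and 20.2, 14.6, 13.1, 22.9 and 25.8 CPM in MET samples. ABCG8 had 38.2, 82.2, 45.3, 39.3 and 54.7 CPM in CON and 50.0, 53.1, 19.3, 48.1 and 107 CPM in MET samples. CON replicate 2 was the highest CON sample of both genes, MET replicate 4 the lowest sample of both and MET replicate 6 the highest MET sample of both.

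For neither half-transporter was a difference between diets detected. Log2 fold changes were −0.17 for ABCG5 (95% interval −0.69 to 0.35; FDR = 0.762) and 0.098 for ABCG8 (95% interval −0.69 to 0.88; FDR = 0.920) by edgeR's quasi-likelihood test, and that of ABCG8 was −0.28 without MET replicate 6 and 0.43 (FDR = 0.565) without both MET replicates 4 and 5. The diet means of ABCG8 were 52.0 ± 18.1 CPM in CON and 55.5 ± 31.9 CPM in MET (SD, n = 5 each), and its within-diet SD on the log2 scale was above that of 92.8% of genes.

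Levels of the partners moved together from calf to calf. Their log2 CPM had a Pearson r of 0.80 (permutation p = 0.00787, adjusted p = 0.0236 over 3 pairs of genes) and a Spearman rho of 0.75 (permutation p = 0.0175, adjusted p = 0.0526) over the 10 samples. Without CON replicate 2 and MET replicate 4, the samples farthest from the median of ABCG5, r was 0.64. On deviations from the diet means r was 0.81 (permutation p = 0.00327, adjusted p = 0.00981). By the same measure 68 of the 13241 other genes tested were more like ABCG5 than ABCG8 was, led by LZTS3 (r = 0.96), FBXL6 (r = 0.92) and NAALAD2 (r = 0.91), which is a description over 10 samples that share their scaling.

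The balance within the pair was even among CON samples and uneven among MET samples. ABCG8 made up 67.9, 70.4, 71.0, 71.7 and 70.9% of the reads of both genes in CON samples. In MET samples its share was 71.2, 78.4, 59.6, 67.7 and 80.6%. The exact 95% interval was 53.6 to 65.4% for MET replicate 4, 75.2 to 81.4% for MET replicate 2 and 78.3 to 82.7% for MET replicate 6, which covers counting error only; all 3 lay outside the range of the CON shares. Per kb, ABCG8 exceeded ABCG5 by 1.09-fold in MET replicate 4 and 3.06-fold in MET replicate 6. The mean log2 ratio did not differ detectably between diets (1.25 ± 0.10 in CON and 1.37 ± 0.60 in MET, SD, n = 5 each; exact two-sided permutation p = 0.675, adjusted p = 0.786 over 4 ratios), and the difference in spread was noticed in the values and was not tested.

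**Figure D4:**
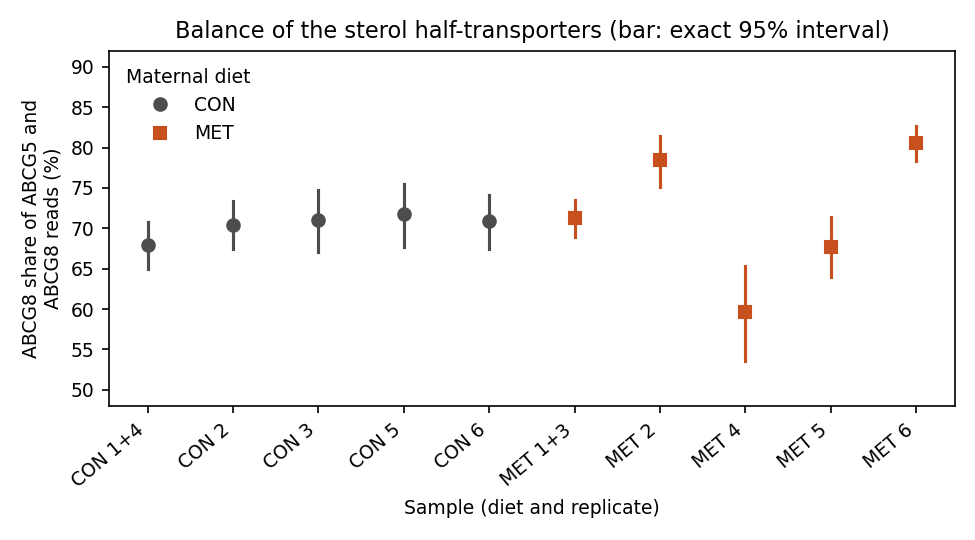
Share of ABCG8 among the reads of ABCG5 and ABCG8 in each sample, with exact 95% intervals for counting error (the axis does not start at 0). The CON samples lay between 67.9 and 71.7%, and the MET samples between 59.6% in replicate 4 and 80.6% in replicate 6.

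Across members, single samples stood out in more than one transporter, and MET replicate 4 is also one of the libraries that stand apart over all genes. The shares of all genes that were lowest or highest in a given sample were not counted. MET replicate 4 had the lowest value of 5 of the 10 members, with a median deviation of −0.57 from the members' means on the log2 scale. CON replicate 2 had the highest value of 4 members and was above the mean for 9, with a median deviation of 0.51. SLCO1B3 did not share this pattern: in MET replicate 4 it deviated by −0.099, and its lowest value was in MET replicates 1 and 3. In all, 7 members had log2 fold changes below 0 and 3 above, with a median of −0.13, beside 6684 genes below and 6558 above 0 and a median of −0.0028 for all genes tested. Log2 fold changes fell with exonic length over all genes (r = −0.26 with log2 length, across genes, which are not independent), and the members were long, with a median of 4304.5 bases against 2806.5. With each sample's length trend removed, r was 0.0012 and the members' median was −0.11. ABCB4 moved to −0.032, ABCC2 to 0.067, ABCC3 to 0.37 and ABCC6 to 0.27, and SLCO1B3 (−0.35) and ABCG2 (−0.37) moved little.

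**Figure D5:**
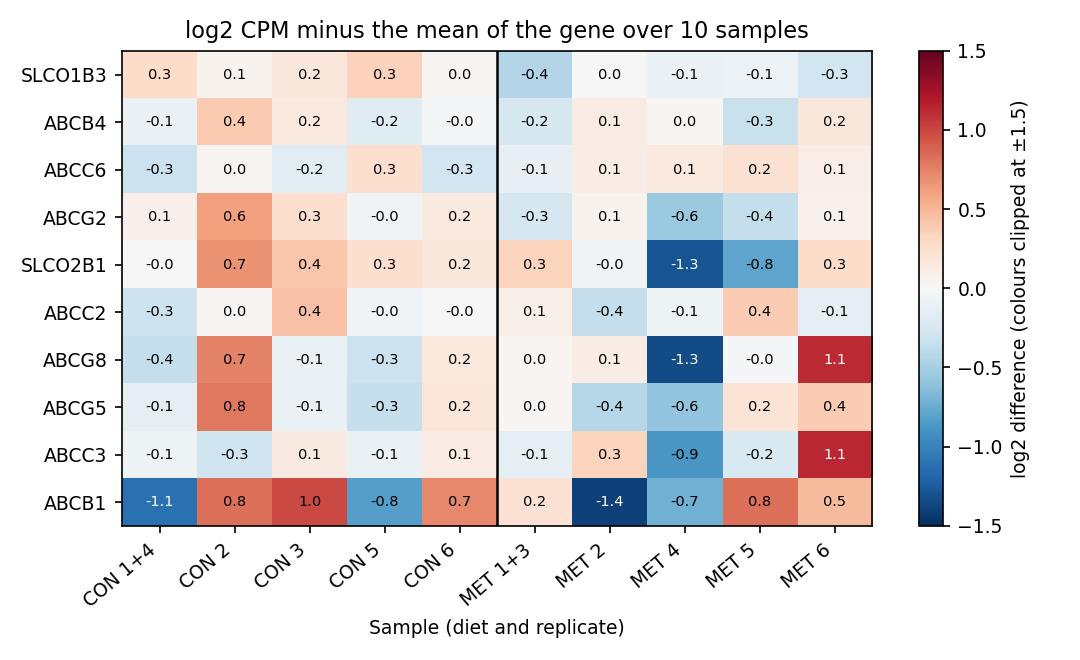
Log2 CPM of each transporter minus its mean over the 10 samples, with CON to the left and MET to the right of the line and rows in order of level. CON replicate 2 was above the mean for 9 of 10 genes and MET replicate 4 below it for 8, and SLCO1B3 was lower in each MET sample than in any CON sample.

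Other genes of transport were read from lists in the same test, where 0 genes had FDR of at most 0.10 over the 10 samples. Of 14 other organic anion and cation carriers 9 were tested, and 3 had log2 fold changes above and 6 below 0 (median −0.18). By an unadjusted p of at most 0.05, 1 of the 9 was higher and 2 lower in MET, beside 7.83% and 8.52% of all genes. SLCO1A2, an uptake carrier whose gene lies 11569 bases from SLCO1B3, had 25.2 ± 4.63 CPM in CON and 14.8 ± 4.79 CPM in MET (SD, n = 5 each), a log2 fold change of −0.77 with FDR = 0.178 by edgeR's quasi-likelihood test over the 10 samples and 0.0715 over the 12 libraries, where 2.32% of genes passed lower in MET. SLCO3A1, a widely expressed carrier of the family, was scarce here, with 1.73 ± 0.446 CPM in CON and 0.889 ± 0.228 CPM in MET. It had a log2 fold change of −0.91 (FDR = 0.183 over the 10 samples and 0.125 over the 12 libraries).

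Among 22 other ABC pumps 19 were tested, 8 above and 11 below 0 (median −0.12), with p at most 0.05 for 2 higher and 3 lower (7.83% and 8.52% of all genes). Over the 12 libraries 2 of them had FDR of at most 0.10, both higher in MET, as had 2.09% of all genes. ABCB8, a pump of the mitochondrial inner membrane, had a log2 fold change of 0.50 (FDR = 0.183 over the 10 samples and 0.0781 over the 12 libraries by edgeR's quasi-likelihood test). ABCC10, a full transporter of conjugates and drugs, had 11.2 ± 1.55 CPM in CON and 15.9 ± 1.93 CPM in MET (SD, n = 5 each), a log2 fold change of 0.50 (FDR = 0.175 and 0.0684).

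Proteins that hold or deliver transporters at the membrane formed a list of 14 genes, all tested. Of these, 12 had log2 fold changes below 0 and 2 above (median −0.20), and 2 of the 14 had p of at most 0.05, both lower in MET, beside 8.52% of all genes. RDX (radixin), which ties canalicular proteins to actin, had 102 ± 29.6 CPM in CON and 66.2 ± 11.5 CPM in MET (SD, n = 5 each), a log2 fold change of −0.63 with FDR = 0.198 by edgeR's quasi-likelihood test. TMEM30A, the partner subunit of the phospholipid flippases, had a log2 fold change of −0.44 (FDR = 0.198). Neither passed over the 12 libraries, with FDR of 0.203 and 0.147.

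Of 20 regulators of transporter genes 19 were tested, 11 above and 8 below 0 (median 0.022), with p at most 0.05 for 2 higher and 4 lower, beside 7.83% and 8.52% of all genes. NR0B2, the small heterodimer partner that bile acids induce through the receptor FXR, had 15.8 ± 8.04 CPM in CON and 39.1 ± 11.3 CPM in MET (SD, n = 5 each). All 5 MET samples, from 30.2 to 57.3 CPM, lay above the CON samples, from 8.68 to 28.9 CPM, as 3.72% of genes were separated in either direction. NR0B2 had a log2 fold change of 1.31 with FDR = 0.174 over the 10 samples and 0.0452 over the 12 libraries by edgeR's quasi-likelihood test, where 2.09% of genes passed higher in MET. PPARA, the fatty acid receptor that also raises ABCB4 in rodents, had a log2 fold change of −0.45 (FDR = 0.178 and 0.0849, the latter beside 2.32% of genes lower in MET).

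In the list of sterol uptake and export partners 12 of 14 genes were tested, 4 above and 8 below 0 (median −0.057), with 1 of the 12 lower at p of at most 0.05, beside 8.52% of all genes. NPC1, which releases cholesterol from lysosomes, had a log2 fold change of −0.71 (FDR = 0.250) by edgeR's quasi-likelihood test. All 8 genes of bilirubin handling were tested, 3 above and 5 below 0 (median −0.22), with 1 of the 8 lower at p of at most 0.05, again beside 8.52%. UGT1A6, a glucuronosyltransferase, had a log2 fold change of −0.95 (FDR = 0.223), and BLVRB, a biliverdin reductase, 0.23 (FDR = 0.393).

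Marker lists for the liver's cells were all detected, with no marker at 0 in every sample. The 7 hepatocyte markers had reads in every sample. Kupffer cell markers summed to 721 to 1017 CPM in CON and 827 to 1192 CPM in MET, stellate cell markers to 554 to 823 and 409 to 677 CPM, and lymphocyte markers to 25.5 to 51.1 and 45.0 to 53.1 CPM. Endothelial markers summed to 239.5 to 402 CPM in CON and 218 to 343 CPM in MET, and cholangiocyte markers to 61.7 to 102 and 41.1 to 82.4 CPM. Pericentral hepatocyte markers ranged from 2443 to 4470 CPM in CON and 1778 to 4883 CPM in MET, periportal markers from 1262 to 1827 and 1030.4 to 1711 CPM, and erythroid markers from 7.61 to 960.0 and 57.0 to 459.6 CPM.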

How the data were processed

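Liver biopsies, deposited as 12 libraries, were read as stranded polyadenylated RNA, single-end for 101 cycles on 1 lane. The authors trimmed the reads, aligned them with STAR 2.5.3a to UMD 3.1.1 and assigned them to exons with featureCounts 1.5.2, leaving out reads with several matches, and deposited raw counts per gene for each library, without normalization. Groups were taken from the sample labels. Gene names came from a RefSeq table (ARS-UCD2.0) by Entrez ID, and coordinates from the count files.

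Libraries of 1 diet whose counts differed by a chi-square per gene under 2 were summed (1 pair per diet, where the other 64 library pairs had 23.3 or more). This left 10 samples, and p-values measure the spread between them. Counts were normalised by TMM and filtered with edgeR 4.0.16 (R 4.3.3; minimum count 10, minimum total 15), and diets were compared with the quasi-likelihood test on diet alone, with Benjamini-Hochberg adjustment over all genes tested (FDR at most 0.10). SE is the log2 fold change divided by the root of F. Exact permutation tests took all arrangements of the 5 and 5 values of log2 CPM (prior count 2) or of log2 read ratios (0.5 reads added), and correlations used 100000 permutations. The floor of 3 reads equals 0.289 to 0.362 CPM; intervals and floors cover counting error only, since reads carried no molecular identifiers. The fits were tested on simulated data.

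The members and lists were chosen with earlier results of these data known. Named were all members, from the 6 lists of transport, regulator, sterol and bilirubin genes the 2 genes of lowest p and every gene with FDR at most 0.10 in either fit, and the 3 genes most like ABCG5, SLCO1B3 and ABCC2. Of the genes so chosen, 1 is not reported here. Samples sharing a replicate number did not deviate together (r from −0.19 to 0.15). Alternatives covered the libraries, the block, normalization, filter, test (DESeq2 1.42.0, limma 3.58.1) and gene length. ABCC4, STARD4 and CETP were not analysed here, as their symbols were not matched.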

Additional observations from a re-analysis of the deposited data

How the results depend on the processing

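With the 12 libraries as separate samples 583 genes and 1 member (SLCO1B3) had FDR at most 0.10, with the replicate block over the 12 libraries 6 genes and 0 members (SLCO1B3 FDR 0.192, ABCG2 FDR 0.169), with DESeq2 639 genes and 1 member, and with DESeq2 over the 12 libraries, added after seeing the data, 1314 genes and 2 members. The replicate numbers gave no sign of pairing, so the block result is given only here. Leaving out 1 sample or 1 library at a time gave 0 to 565 genes and 0 or 1 members; over the 10 samples the highest count, 39, came without MET replicates 1 and 3. Over the 12 libraries the count fell to 26 without CON replicate 1 and 35 without CON replicate 4, and SLCO1B3 had FDR at most 0.10 in 2 of the 12 fits without 1 library.

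ABCC2 changed sign over the 12 libraries (0.033), with the block (0.038), with DESeq2 over the 12 libraries (0.035) and after the gene length correction (0.067), and ABCG8 with voom (−0.053). The ratio of ABCB4 to ABCB1 changed sign over the 12 libraries (−0.18). The causes were not tested. Fits without 1 sample or library also turned the sign of ABCB1 (−0.54 to 0.17), ABCC2 (−0.15 to 0.14), ABCC3 (−0.13 to 0.42), ABCG5 (−0.29 to 0.074) and ABCG8 (−0.28 to 0.34). Without 1 sample, the ratio differences ran from −0.27 to 0.50 for ABCB4 to ABCB1, −0.18 to 0.35 for ABCC3 to ABCC2, −0.051 to 0.32 for ABCG8 to ABCG5 and −0.022 to 0.47 for SLCO1B3 to SLCO2B1. SLCO1B3, SLCO2B1, ABCB4, ABCC6 and ABCG2 kept their sign in all 36 alternative fits. Leaving out both MET replicates 4 and 5, chosen after seeing the data, moved SLCO2B1 to −0.12, ABCG2 to −0.27, ABCC3 to 0.58 and ABCG8 to 0.43; no gene was called with or without them, so their absence could end no call. ABCB4 without 1 sample or library ran from −0.16 to −0.0052. ABCB1 had 2 to 20 reads per library.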

Other observations

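Genes whose deviations from the diet means over the 10 samples were most like those of a transporter are given as a description, since all samples share their scaling. For SLCO1B3 these were OCIAD1, an endosomal and mitochondrial protein (Pearson r = 0.96, 165 CPM on average), a gene without a symbol, Entrez 789374 (r = 0.95, 3.61 CPM), and the calpain protease CAPN3 (r = 0.94, 1.17 CPM). For ABCC2 they were FKBP9, a prolyl isomerase of the endoplasmic reticulum (r = 0.96, 13.7 CPM), the oestrogen receptor ESR1 (r = 0.91, 1.43 CPM) and a gene without a symbol, Entrez 529462 (r = 0.91, 5.32 CPM). Of the 9 other members, ABCB1 was the most like ABCC2 (r = 0.78), at rank 64 among 13241 genes, and had only 2 to 20 reads in a library. ABCC6 was the most like SLCO1B3 (r = 0.50), at rank 864.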
